A study of Homo sapiens with 16 samples.

Results

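The genes described here are 10 effectors and modulators of the Notch pathway. They are the transcriptional repressors HES1, HES4, HES5, HES6, HEY1, HEY2 and HEYL, the feedback inhibitor NRARP, and the Fringe glycosyltransferases LFNG and MFNG. They were taken by name from 35810 genes and not by their measured values. Of the 10 members, 9 passed the filter on low counts that left 16705 genes to test, and HES5 did not. RNA was sequenced from 16 libraries of pancreatic progenitors, which were differentiated in culture from NGN3-GFP cells, a reporter line made from the human embryonic stem cell line SA121. Latrunculin B (latB), which binds actin monomers and so depolymerises actin filaments, was given at 0.5 µM for 3 h (n = 3), 6 h (n = 3), 12 h (n = 2) or 24 h (n = 3). Controls were collected at 0 h (n = 3) and, after the vehicle DMSO, at 24 h (n = 2). Both controls carry a DMSO tag in the labels, but their treatment text names the vehicle for the 24 h control alone, which leaves the treatment of control 0 h uncertain. All groups share 1 cell line, 1 genotype and 1 stage of differentiation, and no vehicle library of 3 h, 6 h or 12 h was used here. Nothing in the labels says that replicates were separate cultures, so p-values measure the spread between these libraries, which may be technical.

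Notch receptors are cleaved when a ligand on a neighbouring cell binds them, and the freed intracellular domain joins the DNA-binding protein RBPJ to switch on HES and HEY genes. HES and HEY proteins are basic helix-loop-helix repressors, and in the embryonic pancreas HES1 is known for holding progenitors back from the endocrine fate by repressing NEUROG3, the gene that starts it. HES6 is an atypical member that counters HES1 and is known from cells entering a neuronal or endocrine programme, NRARP limits Notch signalling from within the nucleus, and the Fringe enzymes add sugars to the Notch receptor that change which ligands it answers.

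RBPJ binds DNA through a short core element, and for HES1, HES4, HES5 and HEYL the promoter stretch with the core nearest to the start is shown. Promoters were taken from RefSeq on GRCh38.p14 as the 250 bases before the annotated start, and 8 of the 10 members had an entry, LFNG with 2. The core was searched as TGGGAA on both strands. It was found in 20.8% of the 35116 promoters of the same length, and in HES1, HES4, HES5, HEY2, HEYL and 1 of the 2 LFNG entries. It was not found in this window of HES6, NRARP or the other LFNG entry. Each line gives 30 bases on the gene's strand, 5′ to 3′, with the core in capitals.
HES1 (chr3:194136059-194136088, plus strand): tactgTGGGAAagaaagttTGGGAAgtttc
HES4 (chr1:1000156-1000185, minus strand): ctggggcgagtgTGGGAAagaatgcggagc
HES5 (chr1:2530326-2530355, minus strand): ggccgcggagtgTGGGAAcggccgcggcgc
HEYL (chr1:39639725-39639754, minus strand): aggaaagggcccTGGGAAagggcggtggcg
The HES1 promoter held 2 cores in the same orientation, with 8 bases between them, which began 84 and 70 bases before the start. The cores shown for HES4, HES5 and HEYL began 76, 80 and 99 bases before it. These starts are those of RefSeq, and for HES4 alone of the 4 genes shown the GENCODE start differs. GENCODE places HES4 at chr1:998962-1000172, so most of the HES4 core lies within the first bases of that gene. HES5 and HEYL also held 2 cores each, the farther ones at 224 and 178 bases, and the one core of HEY2 was at 213 bases and that of LFNG at 248 bases. The N-box, an element that HES proteins bind, was searched as CACNAG on both strands and occurred in 32% of all promoters. It occurred 3 times in the HES1 window, at 165, 132 and 58 bases before the start, and once in 1 LFNG entry. These matches describe letters and not occupied sites.

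The libraries held 23609727 to 33515398 estimated reads. The 8 progenitor markers summed to 974 to 1314 CPM (read counts scaled to a common library size, with the TMM method of edgeR), none was at 0 in any library, and PTF1A was the lowest at 0.0677 to 0.732 CPM. LatB 12 h replicate 2 stood apart from the other 15 libraries. Its 6 mesenchymal markers summed to 847 CPM, against 56.05 to 199.6 CPM elsewhere, led by COL3A1 at 684 CPM. Its 6 endothelial markers summed to 43.2 CPM, against 4.60 to 17.6 CPM. None of these 12 markers was at 0 in it. Its progenitor sum of 1013 CPM was within the range of the rest, but below the 1218 CPM of the other 12 h library. GATA6, at 140.9 CPM, and PTF1A were below all other libraries, and the other progenitor markers were within range. Of the neural markers, SOX2, at 6.97 CPM, and STMN2, at 6.26 CPM, were above all other libraries, which reached 2.80 and 4.95 CPM. SOX1 was also above them, near 0, and the other neural markers were within range. For members at 12 h the values without it are given beside the others. Leaving out 1 library of latB 12 h or of control 24 h leaves 1 library in that group. The spread used by such a fit comes from the other groups, so a call kept, gained or lost there rests on 1 library. Since all groups share 1 fit, this library also enters the error of comparisons that do not contain it. In bulk RNA, fewer cells of a type and less RNA per cell cannot be told apart.

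Among the 9 members tested, edgeR called 5 at 3 h against control 0 h, with MFNG higher and HES4, HEY1, NRARP and LFNG lower. The share of all tested genes called in that comparison was 31.6%. At 6 h against control 0 h 5 members were called, with HES6 higher and HES4, HEY1, HEYL and NRARP lower, beside 43.3% of all genes. At 12 h 3 were called, with HES6 and LFNG higher and HES4 lower, beside 35.8% of all genes. At 24 h against control 24 h 4 were called, with HES6, NRARP and LFNG higher and HES4 lower, beside 40.8% of all genes. HES4 was the one member called in all 4 comparisons, and HES1 and HEY2 were called in none. The median log2 fold change over the 9 members was -0.42 at 3 h, -0.29 at 6 h, -0.14 at 12 h and 0.16 at 24 h, while over all genes it stayed between -0.01 and 0.01. The first 3 medians are against control 0 h and the last against control 24 h, so a difference between the controls enters their course. In control 24 h against control 0 h the member median was -0.145, beside 0.006 over all genes. At 12 h the median was 0.155 without latB 12 h replicate 2 and -0.306 without replicate 1, each with 1 library left at 12 h. Of these 17 calls, 8 kept their direction and their call in every alternative that tested the gene. They were NRARP and MFNG at 3 h, HEYL at 6 h, HES4 at 6 h, 12 h and 24 h, and HES6 at 12 h and 24 h. The other 9 did not, and the changes are given with each gene.

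**Figure D1:**
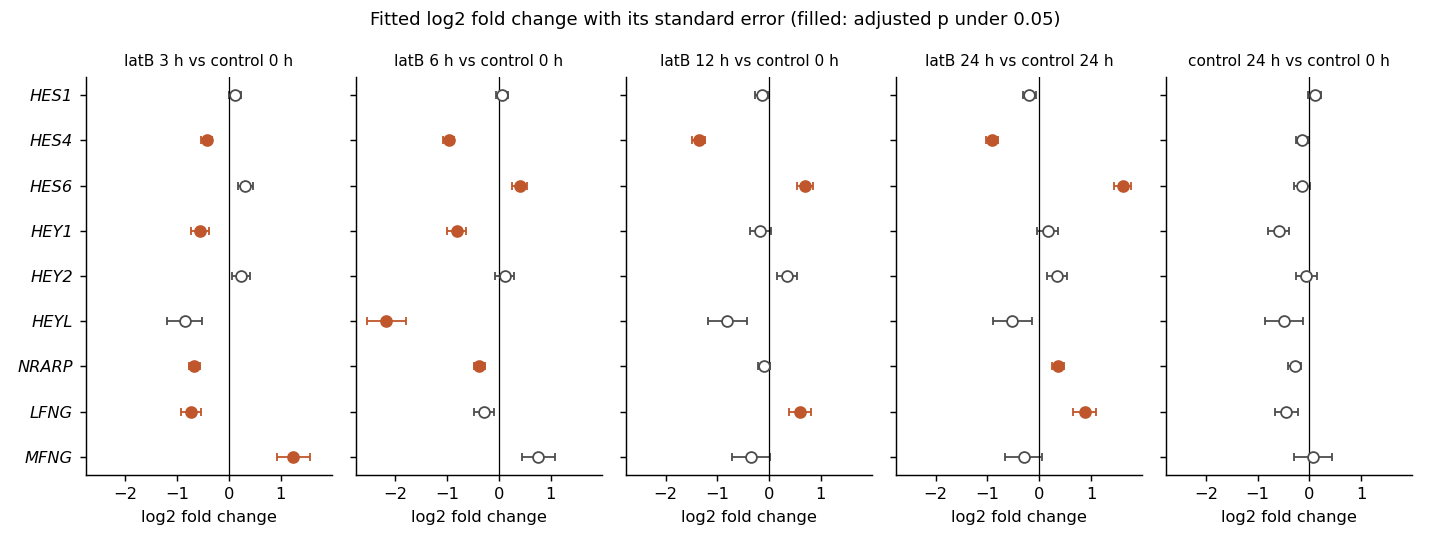
Fitted log2 fold change of the 9 members tested (x axis) with its standard error (bar), in 5 comparisons, with filled points for an adjusted p under 0.05. HES4 was lower in the 4 latB comparisons, from -0.42 at 3 h to -1.36 at 12 h, HES6 was highest at 24 h with 1.62, and no point is filled for control 24 h against control 0 h.

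The controls set the scale for the later results, since several members had lower levels in control 24 h than in control 0 h, without a call. In control 24 h against control 0 h edgeR called none of the 9 members, beside 0.251% of all genes. At an unadjusted p under 0.05 there were 2, HEY1 with a log2 fold change of -0.60 (SE 0.203, adjusted p = 0.337) and NRARP with -0.29 (SE 0.117, adjusted p = 0.484). DESeq2 called 0 members, and edgeR on the compared groups alone called 1, HEY1 with -0.59 (adjusted p = 0.0176). Over all genes these called 265 and 218, against 42 in the main fit. HES4, HEY1, HEYL, NRARP and LFNG were lower in both control 24 h libraries than in every control 0 h library, and HES1 was higher. For these genes the choice of control mattered, and the value against the other control is given below where it changed a call.

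HES1 was the most abundant member, with a mean of 96.0 TPM (an abundance scaled for transcript length and library size) over the 6 groups. It lies at chr3:194136148-194138732 on the plus strand by GENCODE on GRCh38. It stood at 112, 115 and 108.5 CPM in control 0 h and at 122 and 118 CPM in control 24 h. Under latB it stood at 127, 118 and 119.9 CPM at 3 h, 115, 114.5 and 119 CPM at 6 h, 125 and 78.3 CPM at 12 h, and 98.6, 111 and 106 CPM at 24 h. The control 24 h libraries lay above all 3 latB 24 h libraries, the 3 h libraries lay above control 0 h, and the lowest value was that of the library with high mesenchymal markers. The highest group mean was 1.20 times the lowest. The log2 fold changes were 0.12 at 3 h (SE 0.115, adjusted p = 0.462), 0.05 at 6 h (SE 0.115, adjusted p = 0.756), -0.14 at 12 h (SE 0.130, adjusted p = 0.421) and -0.19 at 24 h (SE 0.128, adjusted p = 0.259). No neighbouring groups in the order of the means differed by the test. The direction at 6 h turned against control 24 h, with -0.05, and without TMM scaling, with -0.04. At 12 h the value rested on which library was kept, being 0.15 without replicate 2 and -0.52 without replicate 1, each from 1 library at 12 h. A fit on the 2 compared groups alone called HES1 lower at 24 h (-0.20, adjusted p = 0.0392). Leaving latB 12 h replicate 2 out of the shared fit left the size at 24 h at -0.19 and brought its SE to 0.0514, and HES1 was called lower there too (adjusted p = 0.00941). Against control 0 h, whose libraries overlapped those of latB 24 h, the 24 h value was -0.09 (adjusted p = 0.561). So HES1 was not called at any time in the main fit, and no alternative called it at 3 h or 6 h. At 12 h the 2 libraries lay far apart and leave its change unresolved. The size of the small decrease at 24 h depended on the control. Whether it passed the test against control 24 h depended on how the spread was estimated.

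HES4, a close relative of HES1, fell at every time. It lies at chr1:998962-1000172 on the minus strand and had a mean of 72.7 TPM, the next highest after HES1. Its level was 95.7, 99.7 and 102 CPM in control 0 h and 87.8 and 91.5 CPM in control 24 h. Under latB it was 76.3, 74.6 and 70.7 CPM at 3 h, 52.3, 52.1 and 47.5 CPM at 6 h, 46.4 and 31.1 CPM at 12 h, and 43.3, 46.7 and 53.04 CPM at 24 h. Every latB library was below every control library. The log2 fold changes were -0.42 at 3 h (SE 0.108, adjusted p = 0.00873), -0.97 at 6 h (SE 0.110, adjusted p = 1.47e-05), -1.36 at 12 h (SE 0.129, adjusted p = 5.46e-06) and -0.91 at 24 h (SE 0.120, adjusted p = 7.47e-05). The level at 24 h was 0.532 times that of its control. Without latB 12 h replicate 2 the value at 12 h, then from 1 library, was -1.10. Against control 24 h the 3 h value was -0.28 (adjusted p = 0.0935) and was not called. In the order of group means the fall from 3 h to 6 h was called (-0.54, SE 0.110, adjusted p = 0.00352), and the groups of 6 h, 24 h and 12 h did not differ from their neighbours, although 12 h was below 6 h (-0.39, SE 0.127, adjusted p = 0.0339).

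HES6 rose, and most at 24 h. It lies at chr2:238238267-238240662 on the minus strand, inside a long noncoding RNA annotated on the opposite strand. Its level was 15.5, 14.1 and 17.7 CPM in control 0 h and 13.6 and 15 CPM in control 24 h. Under latB it was 19.8, 18.8 and 20.5 CPM at 3 h, 20.2, 19.4 and 22.8 CPM at 6 h, 27.4 and 23.4 CPM at 12 h, and 34.2, 53.6 and 43.5 CPM at 24 h. All latB libraries were above all control libraries, and the 24 h libraries were above all others but spread widely, with an SD of 9.67 CPM. The log2 fold changes were 0.32 at 3 h (SE 0.140, adjusted p = 0.1), 0.40 at 6 h (SE 0.141, adjusted p = 0.0349), 0.69 at 12 h (SE 0.154, adjusted p = 0.00372) and 1.62 at 24 h (SE 0.161, adjusted p = 9.37e-06). The mean at 24 h was 3.06 times its control. The 3 h value was not called against control 0 h and was called against control 24 h, with 0.46 (adjusted p = 0.0389). The call at 6 h was weak. It was lost on leaving out any of control 0 h replicates 1 and 2 and latB 6 h replicates 1, 2 and 3, with values of 0.30 to 0.43 and adjusted p of 0.0504 to 0.153. It was also lost without scaling (0.31), with an offset for transcript length (0.36) and on log2(TPM + 1) (0.26). Without latB 12 h replicate 2 the 12 h value, then from 1 library, was 0.80.

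The summed endocrine markers were higher at 6 h, 12 h and 24 h of latB than in either control, as HES6 was. Their sum was also higher in control 24 h than in control 0 h, although mean HES6 was not, at 14.3 and 15.8 CPM. The 8 markers, among them NEUROG3, NEUROD1, INSM1, NKX2-2 and CHGA, summed to 36.0 to 43.5 CPM in control 0 h and 70.4 to 83.1 CPM in control 24 h. Under latB the sum was 68.8 to 94.5 CPM at 3 h, 106 to 141 CPM at 6 h, 97.3 to 131 CPM at 12 h and 126 to 331 CPM at 24 h. None of the 8 was at 0 in any library. At 24 h, where 40.8% of all genes were called in either direction, 6 of the 8 were called higher and 0 lower. They were led by NEUROG3 with 4.34 (SE 0.422, adjusted p = 7.66e-06). Of the 24 h libraries, replicate 1 had both the lowest HES6 level, at 34.2 CPM, and the lowest marker sum. At 12 h the order was the reverse. Replicate 2 had the higher sum, 131 CPM, of which CHGA was 63.1 CPM, and the lower HES6, 23.4 against 27.4 CPM. Of the 6 neural markers, with which HES6 is also known to be shared, 4 could be tested, of which 3 were called higher at 24 h and 1, STMN2, lower (-0.92). They summed to 330 to 378 CPM at 24 h against 264 to 282 CPM in control 24 h. Their sum was highest at 6 h, at 542 to 618 CPM, when HES6 was at 19.4 to 22.8 CPM, and most of it was TUBB3, at 343 CPM on average at 24 h. SOX1 was at 0 in 13 of the 16 libraries. The part of either marker group in the HES6 result was not tested.

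**Figure D2:**
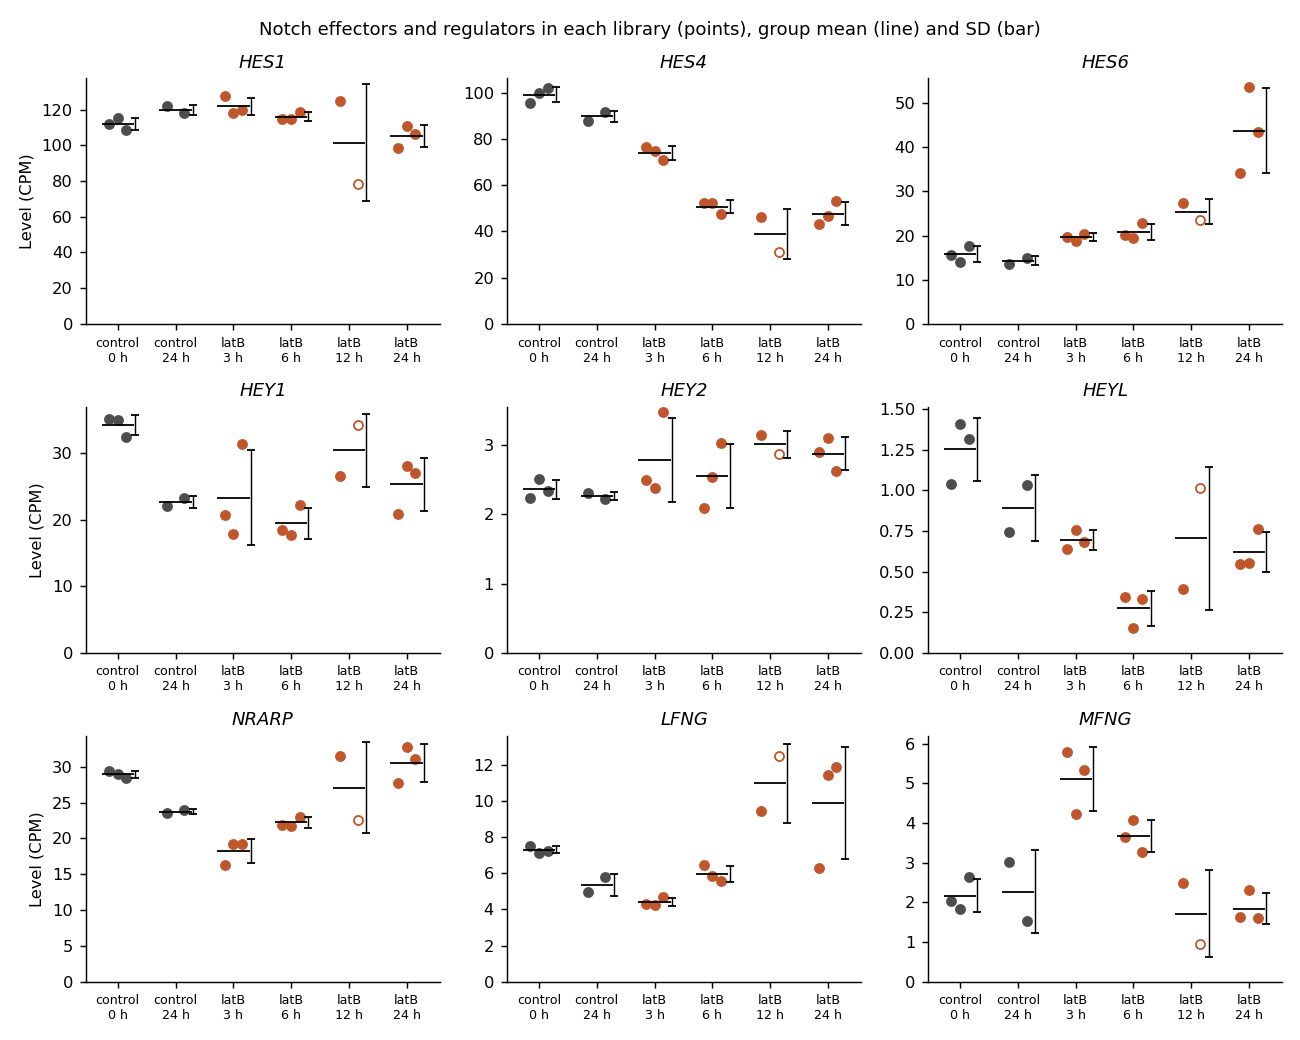
Level in CPM of the 9 members tested (y axes, each from 0) in every library, by group, with the group mean (line) and SD (bar), and an open circle for latB 12 h replicate 2. HES4 stepped down from about 99.1 CPM in control 0 h to 50.6 CPM at 6 h, HES6 rose to 43.8 CPM at 24 h, and MFNG was highest at 3 h with 5.12 CPM.

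HES5 and HEY2 added little. HES5, a Notch target best known from the nervous system, lies at chr1:2528745-2530263 on the minus strand. It had 0 reads in 14 libraries, which allows a level of up to 0.0921 to 0.131 CPM by counting error alone, and 5 and 3 reads in latB 24 h replicates 1 and 3. It was not tested. HEY2 lies at chr6:125747664-125761269 on the plus strand and had 55 to 102 reads per library. Its group means ran from 2.26 CPM in control 24 h to 3.01 CPM at 12 h. Its log2 fold changes of 0.24, 0.11, 0.35 and 0.34 at 3 h, 6 h, 12 h and 24 h had standard errors of 0.178 to 0.199, and none was called, with adjusted p of 0.187 to 0.661. The value at 12 h was 0.41 without latB 12 h replicate 2, and the direction at 6 h turned to -0.05 without latB 6 h replicate 3.

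HEY1, the most abundant of the HEY genes at a mean of 20.6 TPM, was lower early under the drug, but mostly against one of the controls. It lies at chr8:79762371-79767857 on the minus strand. Its level was 35.2, 35.1 and 32.5 CPM in control 0 h and 22.1 and 23.3 CPM in control 24 h. Under latB it was 20.7, 17.9 and 31.4 CPM at 3 h, 18.5, 17.8 and 22.2 CPM at 6 h, 26.6 and 34.3 CPM at 12 h, and 20.8, 28.1 and 27.1 CPM at 24 h. LatB 3 h replicate 3 was well above its replicates, and all 3 h and 6 h libraries were below control 0 h while overlapping control 24 h. Against control 0 h the log2 fold change was -0.55 at 3 h (SE 0.179, adjusted p = 0.0307) and -0.82 at 6 h (SE 0.181, adjusted p = 0.00257), and both were called. Against control 24 h they were 0.04 (adjusted p = 0.899) and -0.22 (adjusted p = 0.415), and neither was. The call at 3 h was also lost without any of control 0 h replicates 1, 2 and 3 and latB 3 h replicates 1 and 2, with values of -0.59 to -0.42 and adjusted p of 0.054 to 0.107, and with a length offset (-0.51, adjusted p = 0.078). Without latB 3 h replicate 3 the value was -0.85 (adjusted p = 0.00115). At 12 h (-0.17, adjusted p = 0.553) and at 24 h against control 24 h (0.16, adjusted p = 0.552) HEY1 was not called. At 24 h the direction turned with the scale, being -0.0147 on log2(TPM + 1), and with the control, being -0.43 (adjusted p = 0.0659) against control 0 h. The 12 h value was -0.37 without latB 12 h replicate 2 and 0.0016 without replicate 1.

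HEYL, a HEY gene known from vessel walls and muscle, was scarce at a mean of 0.257 TPM, and lowest at 6 h. It lies at chr1:39623435-39639643 on the minus strand. Its libraries held 26, 42 and 31 reads in control 0 h, 22 and 33 in control 24 h, 20, 21 and 20 at 3 h, 9, 4 and 8 at 6 h, 9 and 30 at 12 h, and 16, 18 and 23 at 24 h. On the CPM scale these were 1.04, 1.41 and 1.31 in control 0 h, 0.746 and 1.03 in control 24 h, 0.639, 0.758 and 0.681 at 3 h, and 0.343, 0.151 and 0.332 at 6 h. The 6 h libraries were below all others. The log2 fold change at 6 h was -2.17 (SE 0.376, adjusted p = 0.000418) and stayed called in all 17 alternatives that tested it. The value of -0.85 at 3 h was not called (SE 0.337, adjusted p = 0.0707), but was once latB 12 h replicate 2 was out of the fit (adjusted p = 0.0301). That library held 30 reads of HEYL, at 1.01 CPM, against 9 reads, at 0.394 CPM, in the other 12 h library. The 12 h value of -0.80 (adjusted p = 0.120) became -1.66 without that library and -0.31 without the other, each from 1 library at 12 h. HEYL in latB 12 h replicate 2 was above the other 12 h library but below all control 0 h libraries. The mesenchymal sum of that library was 847 CPM and its endothelial sum 43.2 CPM. In control 0 h the mesenchymal sums were 97.0 to 158 CPM. The part of such cells in HEYL was not tested. At 24 h HEYL was not called against control 24 h (-0.52, SE 0.377, adjusted p = 0.296), and was against control 0 h (-1.01, adjusted p = 0.0282).

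NRARP, the feedback inhibitor, dipped early and recovered. It lies at chr9:137299631-137302271 on the minus strand and had a mean of 11.3 TPM. Its level was 29.4, 29.1 and 28.4 CPM in control 0 h and 23.5 and 24.0 CPM in control 24 h. Under latB it was 16.3, 19.2 and 19.2 CPM at 3 h, 21.9, 21.7 and 23.1 CPM at 6 h, 31.5 and 22.6 CPM at 12 h, and 27.7, 32.8 and 31.1 CPM at 24 h. The 3 h libraries were the lowest of the series, and the 24 h libraries were above control 24 h but overlapped control 0 h. The log2 fold change was -0.67 at 3 h (SE 0.105, adjusted p = 0.000319) and -0.38 at 6 h (SE 0.105, adjusted p = 0.00971). The 3 h call held against control 24 h, at -0.38, and the 6 h call did not, at -0.09 (adjusted p = 0.556). At 12 h the value of -0.10 (SE 0.117, adjusted p = 0.535) was 0.12 without replicate 2 and -0.36 without replicate 1, each from 1 library. At 24 h NRARP was higher by 0.36 (SE 0.117, adjusted p = 0.0236) against control 24 h and by 0.08 (adjusted p = 0.585) against control 0 h. The 24 h call was lost without control 24 h replicate 1 or 2 or latB 24 h replicate 2 or 3, at 0.31 to 0.38 with adjusted p of 0.0586 to 0.127, and with the replicate block, at 0.35 (adjusted p = 0.0542).

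LFNG and MFNG, enzymes of the same family, moved in opposite directions at 3 h. LFNG lies at chr7:2512529-2529177 on the plus strand. Its level was 7.53, 7.14 and 7.25 CPM in control 0 h and 4.95 and 5.79 CPM in control 24 h. Under latB it was 4.28, 4.26 and 4.67 CPM at 3 h, 6.47, 5.87 and 5.60 CPM at 6 h, 9.45 and 12.5 CPM at 12 h, and 6.31, 11.4 and 11.9 CPM at 24 h. The 3 h libraries were below all controls and the 12 h and 24 h libraries were above control 24 h. The log2 fold change was -0.73 at 3 h (SE 0.197, adjusted p = 0.0119) and was -0.29 (adjusted p = 0.355) against control 24 h. At 6 h it was -0.29 (SE 0.195, adjusted p = 0.260) and turned to 0.15 (adjusted p = 0.613) against control 24 h. It was 0.59 at 12 h (SE 0.212, adjusted p = 0.0438), a call lost without latB 12 h replicate 2, at 0.37 (adjusted p = 0.313), or any control 0 h library, at 0.56 to 0.61 with adjusted p of 0.0736 to 0.108. It was lost as well with a length offset (0.53), with only the compared groups (0.58), with no filter on low counts (0.59, adjusted p = 0.0512) and on log2(TPM + 1) (0.43). At 24 h LFNG was higher by 0.88 (SE 0.220, adjusted p = 0.00609) against control 24 h and by 0.44 (adjusted p = 0.0829) against control 0 h. The 24 h value was not called without control 24 h replicate 1 (0.77, adjusted p = 0.0732), with only the compared groups (0.87, adjusted p = 0.0534) or on log2(TPM + 1) (0.58, adjusted p = 0.0562). The low latB 24 h library for LFNG, replicate 1 at 6.31 CPM, was also the one with the highest mesenchymal sum at that time, 199.6 CPM, and the lowest endocrine sum, 126 CPM. The highest LFNG level, 12.5 CPM, was in latB 12 h replicate 2, and the part of other cells in it was not tested.

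MFNG lies at chr22:37469063-37486393 on the minus strand. Its libraries held 51, 55 and 62 reads in control 0 h, 89 and 49 in control 24 h, 181, 117 and 157 at 3 h, 96, 108 and 79 at 6 h, 57 and 28 at 12 h, and 48, 75 and 48 at 24 h. On the CPM scale it was 2.03, 1.84 and 2.63 in control 0 h, 3.02 and 1.53 in control 24 h, 5.79, 4.22 and 5.35 at 3 h, and 3.65, 4.09 and 3.28 at 6 h. The 3 h libraries were above all others and the 6 h libraries were above all controls. The log2 fold change at 3 h was 1.24 (SE 0.318, adjusted p = 0.00885), a level 2.37 times that of control 0 h, and it stayed called in all 18 alternatives. At 6 h it was 0.76 (SE 0.320, adjusted p = 0.0705), and it was called once latB 12 h replicate 2 was out of the fit (0.77, adjusted p = 0.0217). At 12 h (-0.35, SE 0.373, adjusted p = 0.500) the value was 0.21 without replicate 2 and -1.19 without replicate 1, each from 1 library. At 24 h (-0.30, SE 0.358, adjusted p = 0.539) it turned to 0.27 without control 24 h replicate 1.

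**Figure D3:**
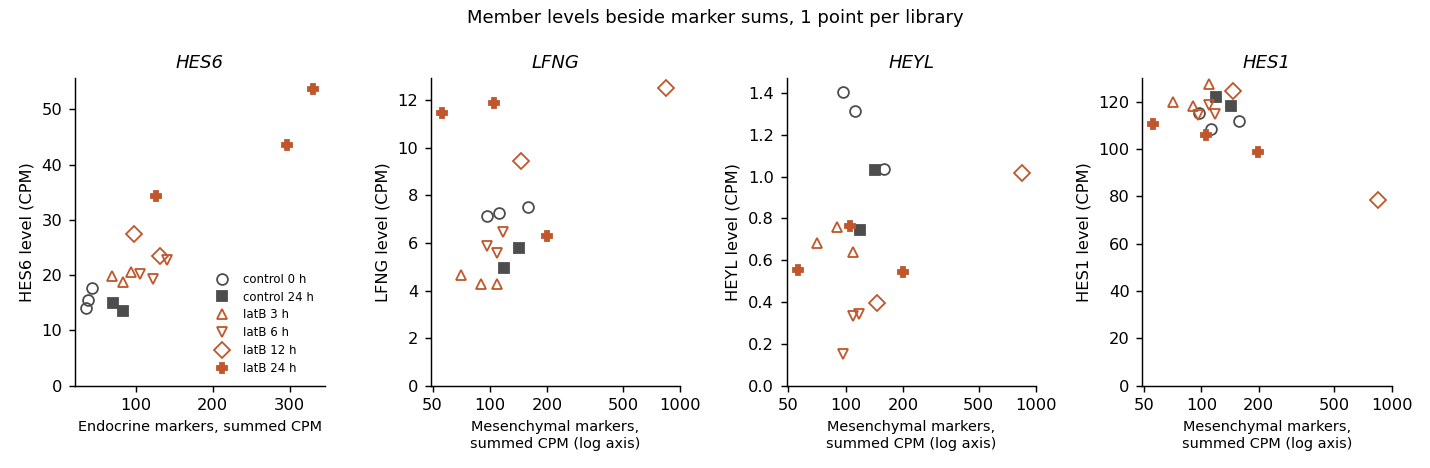
Level in CPM of HES6 beside the summed endocrine markers, and of LFNG, HEYL and HES1 beside the summed mesenchymal markers on a log axis, with 1 point per library. LatB 12 h replicate 2 lies alone at 847 CPM of mesenchymal markers, where LFNG is highest with 12.5 CPM and HES1 lowest with 78.3 CPM, and the 24 h libraries with the highest endocrine sums had the highest HES6.

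The transcripts behind the gene sums were mostly 1 or a few annotated isoforms. HES1-201, the coding transcript, carried 93.0% of HES1 TPM, between 92.1% and 94.8% in every group. Of HES4, the coding HES4-201 carried 45.2% and HES4-203, annotated as a retained intron, 37.9%. Both fell by 24 h against control 24 h, HES4-201 from 44.1 to 24.3 TPM and HES4-203 from 41.7 to 19.3 TPM on group means. Of HES6, HES6-201 carried 69.6% and rose from 9.06 TPM in control 24 h to 27.7 TPM at 24 h, and HES6-203 rose from 3.39 to 8.01 TPM. HEY1-202 carried 63.3% of HEY1, and the share of HEY1-201 was 4.3% in control 24 h and 14.2% to 32.1% in the other groups. MFNG-209, a short retained-intron transcript, had 35.6% of MFNG TPM on 105 of 1300 reads, and the coding MFNG-201 rose from 1.41 TPM in control 0 h to 2.62 TPM at 3 h. Isoform shares are estimates that share reads, and no test was made on them. Long noncoding RNAs on the opposite strand overlap HES5, HES6, HEY2, HEYL and NRARP. They are not among the quantified transcripts, and since the library kit does not mark strand, reads from either strand cannot be told apart.

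**Figure D4:**
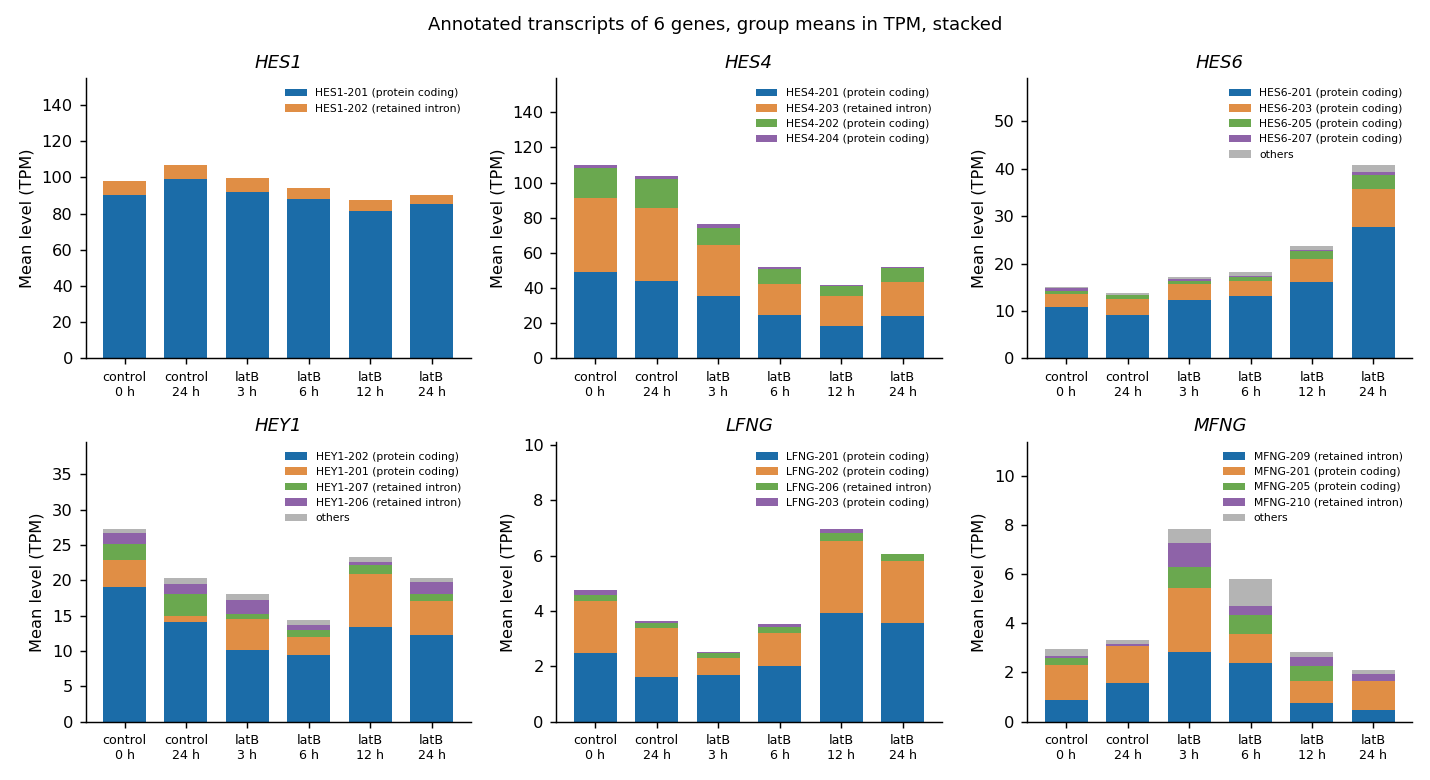
Mean level in TPM (y axes from 0) of the annotated transcripts of 6 members by group, stacked, with the type of each transcript in the key. Both large HES4 transcripts were lower under latB, HES6-201 reached 27.7 of the 40.7 TPM of HES6 at 24 h, and HES1-201 made up at least 92.1% of HES1 in each group.

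The effects of the latest and the earliest drug time were set against each other in the same fit, as the difference between the latB 24 h effect against control 24 h and the latB 3 h effect against control 0 h. Here 5 members were called, beside 27.9% of all genes. LFNG differed most, by 1.61 (SE 0.295, adjusted p = 0.00146), from -0.73 at 3 h to 0.88 at 24 h. HES6 differed by 1.29 (SE 0.210, adjusted p = 0.000658) and NRARP by 1.03 (SE 0.157, adjusted p = 0.000448), which was lower at 3 h and higher at 24 h. These 3 differences kept their calls in all 22 alternatives, none of which changed the control. Against control 0 h the 24 h values were 0.44 for LFNG and 0.08 for NRARP, not called, and 1.475 for HES6, called. MFNG differed by -1.54 (SE 0.476, adjusted p = 0.0278), a call lost without any of control 0 h replicates 1 and 2, control 24 h replicate 1, latB 24 h replicates 1 and 3, and latB 3 h replicates 1 and 3, at -1.50 to -0.97 with adjusted p of 0.0509 to 0.217. HES4 differed by -0.49 (SE 0.162, adjusted p = 0.0391). Its call was lost without any of the 5 control libraries, latB 24 h replicates 1 and 2, and latB 3 h replicates 1 and 2, at -0.52 to -0.42 with adjusted p of 0.0564 to 0.113. It was lost without scaling (-0.38) and with the replicate block (-0.49, adjusted p = 0.0629) too. HES1, at -0.31 (SE 0.172, adjusted p = 0.198), was called with the compared groups alone (-0.30, adjusted p = 0.0117). It was also called without latB 12 h replicate 2 (-0.31). HEY1, at 0.71 (SE 0.270, adjusted p = 0.0647), was called by DESeq2 (0.72, adjusted p = 0.0355) and without scaling (0.82, adjusted p = 0.0374). It was also called without latB 12 h replicate 2, latB 24 h replicate 1 or latB 3 h replicate 3, at 0.72 to 0.998.

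The steps between drug times use no control. From 3 h to 6 h 2 members were called, HES4 and HEYL, both lower, beside 22.2% of all genes. HEYL fell by 1.32 (SE 0.384, adjusted p = 0.0255), a call lost without latB 3 h replicate 2 or 3 or latB 6 h replicate 2, at -1.33 to -1.03. NRARP, at 0.29 (adjusted p = 0.0704), was called without latB 12 h replicate 2 (adjusted p = 0.0111). From 6 h to 12 h 5 members were called, beside 29% of all genes. HEY1 (0.65), HEYL (1.37) and LFNG (0.88) were higher and HES4 (-0.39) and MFNG (-1.11) lower. Without latB 12 h replicate 2, which left 1 library at 12 h, all lost their calls and were smaller in size. They were 0.45, 0.51, 0.66, -0.13 and -0.56 in the same order, and NRARP was at 0.50. Without replicate 1 of 12 h HES4 was at -0.70 and MFNG at -1.95. The 6 h libraries mattered as well. HES4 and HEY1 lost their calls without latB 6 h replicate 1 or 2, HEYL without replicate 2, and MFNG without any of the 3, with adjusted p of 0.0579 to 0.0965. HES1, at -0.20 (adjusted p = 0.289), was at -0.57 without latB 12 h replicate 1. From 12 h to 24 h HES6 was called higher, by 0.79 (SE 0.154, adjusted p = 0.0075), beside 11.7% of all genes, and it missed the threshold without latB 12 h replicate 2, at 0.68 (adjusted p = 0.0502). In that step HES1 went from 0.05 (adjusted p = 0.836) to -0.24 without replicate 2 of 12 h and to 0.43 without replicate 1. HES4, at 0.30, and NRARP, at 0.18, were at 0.62 and 0.44 without replicate 1.

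Upstream of the members, the ligands and receptors were not uniform in direction. Of 9 genes, 8 were tested and NOTCH4 was at 0 in every library. The counts of higher and lower calls were 2 and 0 at 3 h, 4 and 1 at 6 h, 4 and 3 at 12 h (5 and 2 without latB 12 h replicate 2), and 4 and 3 at 24 h. The shares of all genes called were 31.6%, 43.3%, 35.8% and 40.8%. DLL4, a membrane ligand, had the largest rise at 3 h (0.87, SE 0.160, adjusted p = 0.000989), 6 h (3.09, SE 0.156, adjusted p = 2.01e-08) and 12 h (2.98, SE 0.165, adjusted p = 7.79e-08), from 2.25 CPM in control 0 h to 19.1 CPM at 6 h. DLL3, a relative that acts inside the cell, had the largest at 24 h (3.999, SE 0.375, adjusted p = 5.69e-06). JAG1, the ligand with the highest TPM in every group, had the largest fall at 12 h (-0.92, SE 0.124, adjusted p = 9.39e-05) and 24 h (-1.18, SE 0.119, adjusted p = 9.76e-06), and at 6 h the one fall was that of NOTCH2 (-0.37, SE 0.0598, adjusted p = 0.00023).

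Of 26 genes of the signalling machinery, all tested, 6 were higher and 4 lower at 3 h, 7 and 5 at 6 h, 7 and 6 at 12 h (7 and 5 without latB 12 h replicate 2), and 5 and 5 at 24 h, beside the same shares of all genes. The largest rise was of DTX1, a ubiquitin ligase, at 12 h (1.51) and of MAML3, a coactivator, at 24 h (0.52). MAML3 did not rise at every time, since its mean was 67.3 CPM in control 0 h, 87.3 CPM at 3 h and 30.9 CPM at 6 h. DTX1 was not called without latB 12 h replicate 2 (0.96, adjusted p = 0.0838). The largest falls were of NEURL1 at 3 h (-0.61) and of MAML2, another coactivator, at 6 h (-2.002), 12 h (-0.96) and 24 h (-0.71). At 12 h MAML2 stood at 7.44 and 17.9 CPM, and its value was -1.75 without replicate 2 and -0.48 without replicate 1. RBPJ itself was called higher at 6 h (0.27) and 12 h (0.40). RFNG, the third Fringe gene, was at 42.6 CPM in control 0 h and was not called at 3 h, 6 h, 12 h or 24 h, with adjusted p of 0.059 to 0.655. Its 12 h value was 0.41 without latB 12 h replicate 2. RBPJ and RFNG are named here because of their roles, after their values had been seen.

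The genes whose pattern was most like that of HES1 and HES6 over the 16 libraries are given as a description, from 12378 protein-coding genes. The points share libraries and depth. Nearest to HES1 were MT-CO2 (Pearson r = 0.955) and MT-ND3 (0.939), 2 mitochondrial transcripts, and TMEM30B (0.913). Without latB 12 h replicate 2, in which HES1 was lowest, r fell to 0.871, 0.828 and 0.686. Nearest to HES6 were HECW2 (0.971), ZDHHC15 (0.969) and SF3A3 (0.968), and over the other 15 libraries these were 0.981, 0.970 and 0.975. HECW2 rose from 7.07 CPM in control 24 h to 21.4 CPM at 24 h of latB. Among the members, the highest correlations were between LFNG and NRARP (0.734) and between HES1 and MFNG (0.726), and the lowest were between LFNG and MFNG (-0.735) and between HES4 and HES6 (-0.68). LatB 12 h replicate 2 had the lowest HES1 (78.3 CPM) and MFNG (0.947 CPM) and the highest LFNG (12.5 CPM) of the 16 libraries. These member correlations include that library, and its part in them was not tested.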

How the data were processed

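Poly(A) RNA was sequenced from 16 libraries. The authors deposited, for each library, estimated counts and TPM per transcript, laid out as salmon writes them. The submitters' processing notes name Salmon 1.3.0, DESeq2 and hg38, whereas STAR is the aligner named in the study's methods, so the settings behind the values are not certain. A further deposited table holds the authors' DESeq2 comparisons (log2 fold changes, standard errors and p-values). Those and its 16 columns of per-sample values were not used.

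Of 177456 transcripts, 165533 were joined to genes through GENCODE by identifier, and 2.92% to 3.17% of the reads of a library were in the rest. Deposited estimated counts were summed over 35810 genes, rounded to whole numbers and tested with edgeR 4.0.16 (R 4.3.3): the quasi-likelihood test, two-sided, all 6 groups in 1 fit, TMM scaling, filterByExpr, and Benjamini-Hochberg adjustment over 16705 genes, called at 0.05. The SE is the absolute log2 fold change divided by the square root of F. TPM was summed per gene for levels between genes. Depth, given with the results, limits precision. The upper bound given for HES5 at 0 reads covers counting error only. The fit was checked on simulated counts. Alternatives were DESeq2 1.42.0, other scalings and filters, a length offset, limma 3.58.1 on log2(TPM + 1) and log2(TPM + 0.1), the replicate block, the compared groups alone, the other control and leaving out each library. Figures were drawn with matplotlib 3.10.9. The members, gene lists and tests were chosen with earlier results of these data known. Named genes are all 10 members, the largest called rise and fall of each pathway list in each comparison with a control, and the 3 genes most correlated with HES1 and with HES6. Some genes that this rule names are not reported here.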

Additional observations from a re-analysis of the deposited data

Results flagged for a closer look

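Of the 9 members tested, 5 had an effect of latB at 24 h that differed from that at 3 h by the test of the difference itself, in edgeR with Benjamini-Hochberg adjustment over all genes, of which 27.9% were called. On the log2 scale, the effect at 24 h minus that at 3 h was 1.61 for LFNG, 1.29 for HES6, 1.03 for NRARP, -1.54 for MFNG and -0.49 for HES4. The first 3 kept their calls in all 22 alternatives, while MFNG kept its call in 15 and HES4 in 11. None of the 22 changed the control. The effect at 3 h is against control 0 h and that at 24 h against control 24 h, so a difference between the controls enters each value. LFNG and NRARP were also lower in control 24 h than in control 0 h, by -0.44 and -0.29, without a call.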

How the results depend on the processing

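For members, 81 log2 fold changes were recomputed in 1377 alternatives. Of these, 1216 kept their direction and side of the threshold, 93 lost a call, 35 gained one and 33 changed direction. Where no cause is shown by the construction of an alternative, the cause was not tested. 

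With the other control as the reference, 3 members were called at 3 h and 3 at 6 h, beside 5412 and 6904 of all genes. Direction turned for HEY1 at 3 h (0.0428), 12 h (0.43) and 24 h (-0.43), HES1 at 6 h (-0.0474), LFNG at 6 h (0.15) and NRARP at 12 h (0.19). HES1 at 6 h also turned without scaling (-0.0393) and on log2(TPM + 1) and log2(TPM + 0.1) (-0.0549 and -0.0554), HEY1 at 24 h on the same scales (-0.0147 and -0.0161), and MFNG from 12 h to 24 h with the length offset (-0.42) and on the same scales (-0.19 and -0.20). Calls among members from 3 h to 6 h numbered 1 with a mean of at least 50 counts, with the length offset and under both TPM settings, and 4 when the fit held the compared groups alone. Over all genes 3710 were called there in the main fit. These settings, in the same order, gave 3803, 2030, 1751, 1788 and 4563. From 6 h to 12 h member calls numbered 3 with the length offset and under both TPM settings, and 1 with the compared groups alone. That last fit also gave 1 for control 24 h against control 0 h and 0 from 12 h to 24 h. With it, calls over all genes went from 4837 to 1593 from 6 h to 12 h. They went from 42 to 218 between the controls and from 1952 to 0 from 12 h to 24 h.

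Leaving out 1 library at a time gave 4 to 6 member calls at 3 h, 4 to 6 at 6 h, 2 to 6 at 12 h, 2 to 5 at 24 h, 0 to 0 between the controls, 1 to 3 from 3 h to 6 h, 1 to 6 from 6 h to 12 h, 1 to 4 from 12 h to 24 h and 3 to 7 for the difference between 24 h and 3 h. The upper ends at 3 h, 6 h and 24 h and for the difference come from leaving latB 12 h replicate 2 out of the shared fit, an alternative chosen after seeing the data. Leaving out a library of latB 12 h or control 24 h left 1 library in that group, so counts from such fits are not replicated. Calls over all genes moved too, at 3 h from 5271 to 4145 without latB 3 h replicate 3. At 6 h they went from 7230 to 5934 without latB 6 h replicate 3. Directions turned in these ranges of log2 fold change. HES1 ran from -0.52 to 0.15 at 12 h, from -0.57 to 0.10 from 6 h to 12 h and from -0.24 to 0.43 from 12 h to 24 h. NRARP ran from -0.36 to 0.12 at 12 h and from -0.0458 to 0.44 from 12 h to 24 h. MFNG ran from -1.19 to 0.21 at 12 h, -0.71 to 0.27 at 24 h, -0.49 to 0.48 between the controls and -0.43 to 0.96 from 12 h to 24 h. HEY1 ran from -0.37 to 0.0016 at 12 h and from -0.42 to 0.0103 from 3 h to 6 h. HEY2 ran from -0.048 to 0.22 at 6 h, -0.27 to 0.0637 from 3 h to 6 h and -0.13 to 0.00303 from 12 h to 24 h. HEYL ran from -0.70 to 0.65 and LFNG from -0.34 to 0.086 from 12 h to 24 h.

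Replicate numbers did not pair the libraries: the deviations of 12 same-numbered pairs correlated between -0.059 and 0.059. With the replicate block, 5, 5, 3 and 3 members were called at 3 h, 6 h, 12 h and 24 h. Over all genes the block fit called 4853, 6863, 5364 and 6005. A mean of at least 50 counts left HEYL without a value, and HES5 was not tested in any alternative. Genes with under 50 reads, HEYL above all, are limited by depth. For the pathway lists, leaving out each latB 12 h library in turn was chosen after seeing the data.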

Other observations

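Relatives and partners of the HES and HEY repressors were measured in the same fit. Of 6 relatives (HES2, HES3, HES7, HELT, BHLHE40 and BHLHE41), 4 were tested, HELT was at 0 in every library and HES3 had at most 1 read. BHLHE40, a repressor of the same class known from stress and clock responses, was the only one called higher, at 3 h (2.21, SE 0.298, adjusted p = 9.45e-05) and 6 h (2.11, SE 0.298, adjusted p = 8.82e-05). It stood at 1.99 ± 0.467 CPM (SD, n = 3) in control 0 h, 9.21 ± 2.80 CPM (n = 3) at 3 h and 1.70 ± 0.191 CPM (n = 3) at 24 h, where it was not called. BHLHE41 was called lower at 12 h (-0.85, adjusted p = 0.0312) and 24 h (-1.08, adjusted p = 0.00742), and without latB 12 h replicate 2 it was not called at 12 h (-0.65, adjusted p = 0.200).

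Of 5 TLE genes, a family with corepressors that HES proteins recruit, 3 were called higher at 3 h and 2 at 6 h. At 12 h 2 were called higher, and at 24 h 1 higher and 1 lower. TLE4 at 12 h was -0.38 without latB 12 h replicate 2 and 1.15 without replicate 1, each from 1 library. TLE3 had the largest rise at each time, with 1.33 at 3 h (SE 0.181, adjusted p = 0.000104) and 1.67 at 6 h (adjusted p = 1.04e-05). It was 1.46 at 12 h (adjusted p = 9.38e-05) and 1.07 at 24 h (adjusted p = 0.00111). Without latB 12 h replicate 2 its 12 h value was 1.66. TLE1 was called lower at 24 h (-0.41, adjusted p = 0.0361). Of all genes, 31.6%, 43.3%, 35.8% and 40.8% were called at 3 h, 6 h, 12 h and 24 h.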
